A study of Mus musculus with 20 samples.

Results

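The genes described here are 33 genes of hepatic fatty acid oxidation and targets of PPAR-alpha, listed by their known roles. All 33 were on the array, with 46 probes, and all 33 were well above background on all 20 arrays, so none was lost to the filter that left 21998 genes of the array. RNA from the livers of 20 ovariectomized mice, 5 in each of 4 groups, was read on 1-colour microarrays, 1 array per mouse. The groups were ERa-/- mice given estradiol (null E2), ERa-/- mice given placebo (null placebo), ERa+/+ mice given estradiol (wild type E2) and ERa+/+ mice given placebo (wild type placebo). Both genotypes descended from the same parents. All mice had their ovaries removed at 4 weeks of age, and at 9 weeks they received by gavage either estradiol (E2) at 1 mg/kg or its vehicle, castor oil with 5% ethanol. All were killed 4 h later under anaesthesia. Mice were kept in cages of 5 under a 12 h light cycle, and the feeding state and hour of death are not given in the sources used here, nor is the part of the receptor gene that was deleted.

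PPAR-alpha is a nuclear receptor that binds fatty acids and, paired with RXR, switches on genes for the uptake, transport and oxidation of fat, chiefly in the fasted liver. Its targets carry long-chain acyl groups into mitochondria with carnitine, shorten them by beta-oxidation in mitochondria and peroxisomes, hydroxylate their far end with cytochromes of the Cyp4a family, and release free fatty acids from coenzyme A. Estrogen receptor alpha, encoded by Esr1, is the main estrogen receptor of hepatocytes, and the comparisons ask which of these genes respond within hours to E2 and whether that response needs the receptor.

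Some DNA of the genes on which the results turn is shown first. Ehhadh and Fabp1 are given by the 250 bases before their RefSeq start on GRCm38.p6, because Ehhadh was the member that passed the test for E2 and Fabp1 was the member with the closest match to the PPAR-alpha element. The element searched was AGGTCANAGGTCA, which is 2 copies of the hexamer AGGTCA with 1 base between them, on both strands of windows that run from 250 bases before to 50 bases after a start. Capitals mark the single match with at most 1 mismatch, on the minus strand of the Fabp1 window, 67 bases before the start. The Ehhadh window lies at chr16:21787835-21788084 on the minus strand and the Fabp1 window at chr6:71199629-71199878 on the plus strand.
Ehhadh: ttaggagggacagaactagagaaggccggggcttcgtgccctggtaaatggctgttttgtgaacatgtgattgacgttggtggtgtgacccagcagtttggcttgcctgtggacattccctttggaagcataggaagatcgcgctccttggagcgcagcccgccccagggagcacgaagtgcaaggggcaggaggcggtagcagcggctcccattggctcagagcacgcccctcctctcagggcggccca
Fabp1: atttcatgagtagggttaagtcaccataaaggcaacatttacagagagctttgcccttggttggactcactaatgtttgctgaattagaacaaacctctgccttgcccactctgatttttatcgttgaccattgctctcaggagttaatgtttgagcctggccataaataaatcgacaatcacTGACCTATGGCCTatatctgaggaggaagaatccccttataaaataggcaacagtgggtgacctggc
At least 1 window was available for 27 of the 33 members, and Acot3 and Bdh1 had more than 1. A member was counted when any of its windows held a match, while the percentages are shares of single windows. The exact element was in 0 of these 27 and in 0.04% of all 32851 windows. With at most 1 mismatch it was in 1 member (Fabp1) and in 0.55% of all windows, and with at most 2 mismatches in 5 members and in 3.86% of all windows. The single hexamer was in 8 members and in 16.26% of all windows. The palindromic estrogen response element GGTCANNNTGACC, which shares the letters GGTCA with the hexamer, was exact in 0 members and in 0.07% of all windows, and with at most 1 mismatch it was in 1 member (Creb3l3) and in 0.88% of all windows. The Ehhadh window held neither element with up to 2 mismatches nor the hexamer. A match is a description of letters, and the absence of one says only that these letters are not in this window.

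Cyp4a10 and Cyp4a31, omega-hydroxylases whose genes lie close together on chromosome 4, are near copies, and their probes could not be taken as separate measurements. A Cyp4a10 probe at mm9 chr4:115198463-115198522 and a Cyp4a31 probe at chr4:115243923-115243982, both on the plus strand, were identical at 54 of 60 bases, with the differing bases in capitals.
Cyp4a10: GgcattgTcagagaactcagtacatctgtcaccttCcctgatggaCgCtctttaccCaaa
Cyp4a31: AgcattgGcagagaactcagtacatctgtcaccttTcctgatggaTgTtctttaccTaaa
The probes used for the level of these 2 genes shared 44 of 47 aligned bases, and no other pair among the 1018 pairs of probes of different members shared as many as 40. Values of this gene pair are therefore uncertain as to which gene they measured. Probes were compared with each other and not with the transcripts of other members, so cross-reading between other paralogs was not tested.

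Between 51.6% (null placebo 1) and 70.0% (wild type E2 1) of the spots of an array were well above background, and wild type E2 1 stood apart from the other arrays, which reached at most 61.3%. Esr1, the targeted gene, had a log2 level relative to the array 75th percentile of -1.63 ± 0.31 in null E2 and -1.61 ± 0.48 in null placebo livers, against 0.60 ± 0.41 in wild type E2 and 0.39 ± 0.25 in wild type placebo livers (SD, n = 5 each), with no overlap between genotypes. All 10 hepatocyte markers were well above background on all arrays, while 3 of 7 fat cell genes (Adipoq, Plin1 and Lep) and 6 of 8 striated muscle genes did not pass the filter. Of 4 pancreas genes, Cela1, Prss1 and Cpa1 did not pass, while Amy2a5 was well above background on all arrays. Its levels were 3.80 to 4.15 in null E2, 3.87 to 4.33 in null placebo, 3.58 to 4.18 in wild type E2 and 3.74 to 4.01 in wild type placebo livers. The 4 measured fat cell markers were Cfd, Retn, Car3 and Adrb3, of which 2 were well above background on all arrays. They averaged -0.07 to 0.61 in null E2, 0.23 to 0.95 in null placebo, 0.12 to 0.68 in wild type E2 and -0.15 to 0.10 in wild type placebo livers. Wild type placebo thus lay below wild type E2 and null placebo with no overlap. The 4 measured erythroid markers of 5 averaged 3.30 to 3.73 in null E2, 3.51 to 4.02 in null placebo, 3.48 to 3.84 in wild type E2 and 2.84 to 3.31 in wild type placebo livers, so that the wild-type groups did not overlap. The 7 Kupffer cell markers averaged 1.93 to 3.71 in wild type E2 against 1.78 to 2.88 in wild type placebo livers. The part of these cells in the results was not tested, and in a piece of liver fewer cells of a type and less RNA per cell cannot be told apart.

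E2 raised 1 of the 33 members in wild-type livers, Ehhadh, the bifunctional enzyme of peroxisomal beta-oxidation, and lowered 0. It was 2.03-fold higher with E2, and it was the member whose level separated the wild type E2 livers from all 15 others. By limma, 0.318% of all genes tested were called in the same comparison. At an unadjusted p under 0.05 there were 6 members (Ehhadh, Cyp4a10, Acaa1a, Ppara, Cd36 and Cyp4a31), against 8.28% of all genes. Of these 6, Cyp4a10 and Cyp4a31 are not separate measurements. Of the 33 members, 23 lay above 0 and the median log2 difference was 0.07, against 0.00 over all genes, while scaling to the array median moved both medians down, to -0.17 and -0.24, and left 4 members above 0. For 29 members the 95% interval of the E2 difference lay inside a 2-fold change in either direction, and for 19 inside a 1.5-fold change. The 4 with intervals reaching past a 2-fold change were Ehhadh, Cd36, Acot3 and Pdk4.

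The Ehhadh probe lies at mm9 chr16:21761914-21761973 on the minus strand and was the single probe of this gene. Log2 levels were 5.76, 5.54, 6.04, 6.14 and 6.05 in null E2 livers, 5.70, 6.08, 5.79, 6.17 and 5.54 in null placebo livers, 6.79, 6.43, 6.77, 7.18 and 7.24 in wild type E2 livers, and 6.26, 5.23, 6.33, 5.46 and 6.03 in wild type placebo livers. Every wild type E2 liver was above every liver of the other 3 groups, which overlapped one another. Means were 5.91 ± 0.25 in null E2, 5.86 ± 0.26 in null placebo, 6.88 ± 0.33 in wild type E2 and 5.86 ± 0.49 in wild type placebo livers (SD, n = 5 each). The log2 difference of E2 against placebo in wild types was 1.02 ± 0.21 (SE, limma adjusted p = 0.0389), and the exact permutation p of 0.00794 was the smallest that 5 against 5 animals can give. On the 3 slides that held both wild-type groups, the log2 difference was 1.58, 1.32 and 0.99. These came from 2 E2 livers against 1 placebo liver, 2 against 1 and 1 against 1. Wild type placebo 3 and 5 were on the slide without wild type E2 livers and did not enter them. The placebo livers behind 1.58 and 1.32 were wild type placebo 2 and 4, which had the lowest Ehhadh levels of their group (5.23 and 5.46). They were low for most members, with 1 and 4 members above their own mean. In nulls the E2 difference was 0.05 ± 0.21 (limma adjusted p = 0.989), with a 95% interval from -0.39 to 0.49. The wild-type difference minus the null difference was 0.97 ± 0.30 (unadjusted p = 0.00408), and this test of the difference between genotypes did not pass adjustment over all genes (limma adjusted p = 0.513). The call in wild types was close to the threshold: it was lost under 6 of 13 other settings and on leaving out any of 12 of the 20 animals, with a log2 difference between 0.78 and 1.21 throughout. Without wild type E2 1, the array that stood apart, it was 1.046 (limma adjusted p = 0.0803).

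**Figure D1:**
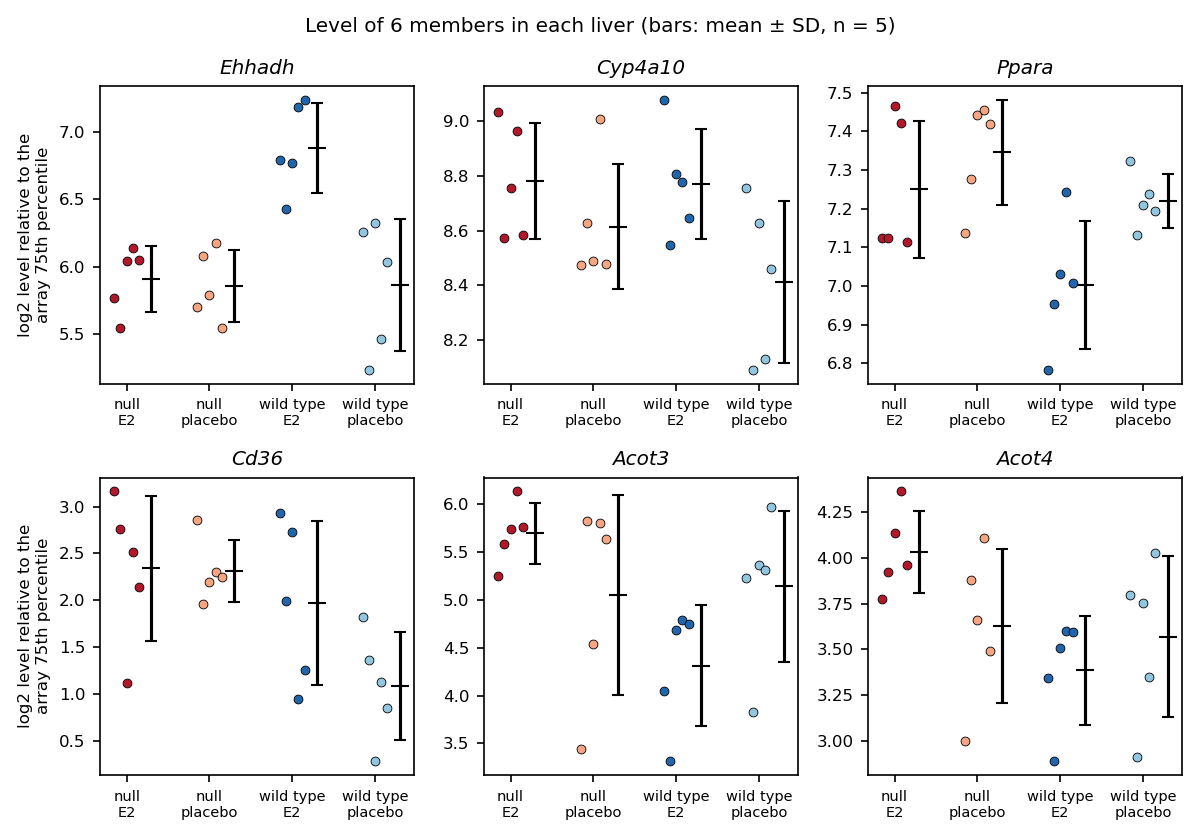
Log2 level relative to the array 75th percentile (y axis, its range set for each gene) of 6 members in each of 20 livers, by group (x axis). Points are livers and bars are the mean ± SD of 5. For Ehhadh the 5 wild type E2 livers, from 6.43 to 7.24, lie above the 15 others, while the groups of Cyp4a10 and Ppara overlap within each comparison and those of Cd36, Acot3 and Acot4 separate only between genotypes under 1 treatment.

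The 4 regulators did not pass the test in any comparison. Ppara, which encodes the receptor itself, had log2 levels of 6.78, 6.95, 7.03, 7.24 and 7.01 in wild type E2 livers, against 7.32, 7.13, 7.21, 7.24 and 7.19 in wild type placebo livers. One wild type E2 liver reached the placebo range and the other 4 were below it. The log2 difference was -0.22 ± 0.10 in wild types (SE, limma adjusted p = 0.568) and -0.10 ± 0.10 in nulls (limma adjusted p = 0.931). The other probes of Ppara gave -0.23 and -0.19 in wild types. Ppargc1a, the coactivator that drives oxidative genes in fasting, differed by -0.62 ± 0.29 with E2 in nulls (limma adjusted p = 0.821) and by 0.06 ± 0.29 in wild types (limma adjusted p = 0.973). A second, dimmer probe of Ppargc1a gave -0.27 in nulls and 0.155 in wild types. Creb3l3, a membrane-bound transcription factor that works with PPAR-alpha, differed by 0.00 in nulls and 0.02 in wild types. Fgf21, the fasting hormone secreted by the liver, had an E2 difference of 0.41 ± 0.35 in nulls (limma adjusted p = 0.915) and of -0.01 ± 0.35 in wild types (limma adjusted p = 0.994), and its pooled SD of 0.59 between livers of a group was among the widest of the members.

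The carnitine shuttle, which moves long-chain acyl groups across the inner mitochondrial membrane, had 0 of 5 members past the test under E2 in either genotype. Cpt1a, the rate-setting liver enzyme of the shuttle, had log2 levels of 6.96, 6.75, 6.69, 6.83 and 6.62 in wild type E2 livers, against 6.73, 6.59, 6.58, 6.26 and 6.93 in wild type placebo livers. The groups overlapped. Its E2 difference was 0.15 ± 0.11 in nulls (limma adjusted p = 0.888) and 0.15 ± 0.11 in wild types (limma adjusted p = 0.742). Wild-type differences of the other 4 were 0.17 for Cpt1b (the muscle form), 0.08 for Cpt2 (the inner-membrane enzyme), 0.13 for Slc25a20 (the carnitine carrier) and -0.34 for Crat (carnitine acetyltransferase).

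Among uptake and binding genes, Cd36, the fatty acid translocase of the cell surface, was one of the most variable members. Its log2 levels were 2.93, 1.99, 2.73, 0.95 and 1.26 in wild type E2 livers, against 1.82, 1.37, 0.28, 1.12 and 0.85 in wild type placebo livers. Of the E2 livers, 3 were above the placebo range and the rest lay within it. The log2 difference of 0.88 ± 0.40 did not pass (limma adjusted p = 0.573), and in nulls it was 0.03 ± 0.40 (limma adjusted p = 0.997). Fat cells, macrophages, endothelium and red cell precursors express Cd36 too. The fat cell genes Adipoq, Plin1 and Lep did not pass the filter. The 4 measured fat cell markers had a median E2 difference of -0.23 in nulls (0 of 4 above 0) and of 0.37 in wild types (4 of 4 above 0). For 7 Kupffer cell markers it was 0.18 in nulls and 0.37 in wild types (7 of 7 above 0 in each). For 4 erythroid markers it was -0.10 in nulls (1 of 4 above 0) and 0.52 in wild types (4 of 4). For 6 endothelial markers it was -0.10 in nulls (2 of 6) and 0.15 in wild types (6 of 6). None of these markers passed the test for E2. The part of these cells in the Cd36 value was not tested. Fabp1, the fatty acid binding protein of liver cytosol, differed by -0.02 in nulls and by 0.07 in wild types, with levels between 9.49 and 9.96 over the 20 livers.

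The 9 members of mitochondrial beta-oxidation are the acyl-CoA dehydrogenases Acadl, Acadm, Acads and Acadvl, the trifunctional protein subunits Hadha and Hadhb, the dehydrogenase Hadh, the thiolase Acaa2 and the electron-transfer enzyme Etfdh. With E2, their log2 differences ran from -0.10 to 0.16 in nulls and from -0.03 to 0.21 in wild types, and 0 of 9 passed in either genotype. Acadm had the highest of these in wild types, with 7.56, 7.48, 7.55, 7.08 and 7.19 in wild type E2 livers against 7.41, 7.03, 7.18, 7.01 and 7.14 in wild type placebo livers. The groups overlapped, as they did for every gene of this role under E2.

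Beside Ehhadh, the peroxisomal genes were the thiolases Acaa1a and Acaa1b and Pex11a, a protein of peroxisome division. Acaa1a had log2 levels of 8.73, 8.65, 8.74, 8.51 and 8.32 in wild type E2 livers against 8.59, 8.22, 8.29, 8.14 and 8.50 in wild type placebo livers, a difference of 0.24 ± 0.11 that did not pass (limma adjusted p = 0.556). Acaa1b differed by 0.34 ± 0.15 in nulls (limma adjusted p = 0.818), the smallest unadjusted p of the members there, and by 0.13 in wild types. Pex11a differed by -0.15 in nulls and 0.07 in wild types. Acaa1a and Acaa1b are close paralogs on chromosome 9, and their probes did not share 40 aligned bases. Whether either probe also reads the transcript of the other gene was not tested.

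For the omega-hydroxylases, Cyp4a10 had log2 levels of 9.08, 8.55, 8.81, 8.78 and 8.64 in wild type E2 livers, against 8.75, 8.09, 8.63, 8.13 and 8.46 in wild type placebo livers. The difference was 0.36 ± 0.15 (limma adjusted p = 0.530) and did not pass. Cyp4a31 gave 0.34 ± 0.15 (limma adjusted p = 0.578). In nulls, E2 differences were 0.17 ± 0.15 for Cyp4a10 (limma adjusted p = 0.916) and 0.19 for Cyp4a31. The 4 further probes of this gene pair gave 0.34 to 0.46 in wild types.

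The 4 acyl-CoA thioesterases lie in 1 cluster on chromosome 12, with probes between mm9 positions 85334071 and 85400511. They cut acyl-CoA back to the free acid in the cytosol (Acot1), mitochondria (Acot2) and peroxisomes (Acot3 and Acot4). Their E2 differences ran from 0.10 (Acot1) to 0.64 (Acot3) in nulls and from -0.83 (Acot3) to -0.11 (Acot1) in wild types, and 0 of 4 passed in either. Acot3 had log2 levels of 5.25, 5.59, 5.74, 6.14 and 5.76 in null E2 livers, 3.44, 5.83, 4.54, 5.80 and 5.64 in null placebo livers, 4.05, 3.31, 4.68, 4.79 and 4.74 in wild type E2 livers, and 5.23, 3.83, 5.37, 5.32 and 5.97 in wild type placebo livers. The null E2 livers all lay above the wild type E2 livers, and both placebo groups overlapped with each of these. Its E2 difference was 0.64 ± 0.44 in nulls and -0.83 ± 0.44 in wild types, and the wild-type difference minus the null difference was -1.47 ± 0.62 (limma adjusted p = 0.650). A second Acot3 probe gave -1.24 for the same quantity. For Acot4 that quantity was -0.59 ± 0.30 (limma adjusted p = 0.705).

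The remaining members were Pdk4, which shuts pyruvate out of oxidation when fat is burned, Bdh1, the mitochondrial ketone body dehydrogenase, and Vnn1, a pantetheinase. Pdk4 ranged widely within each group, with log2 levels of 3.05, 1.57, 2.95, 2.47 and 2.82 in wild type E2 livers against 4.36, 2.35, 3.66, 2.38 and 2.07 in wild type placebo livers. The differences of -0.49 ± 0.47 in nulls (limma adjusted p = 0.922) and -0.39 ± 0.47 in wild types (limma adjusted p = 0.854) were smaller than its pooled SD of 0.80. Vnn1 differed by 0.52 ± 0.24 in nulls (limma adjusted p = 0.821) and by 0.14 in wild types, and Bdh1 by 0.13 in nulls and 0.22 in wild types.

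**Figure D2:**
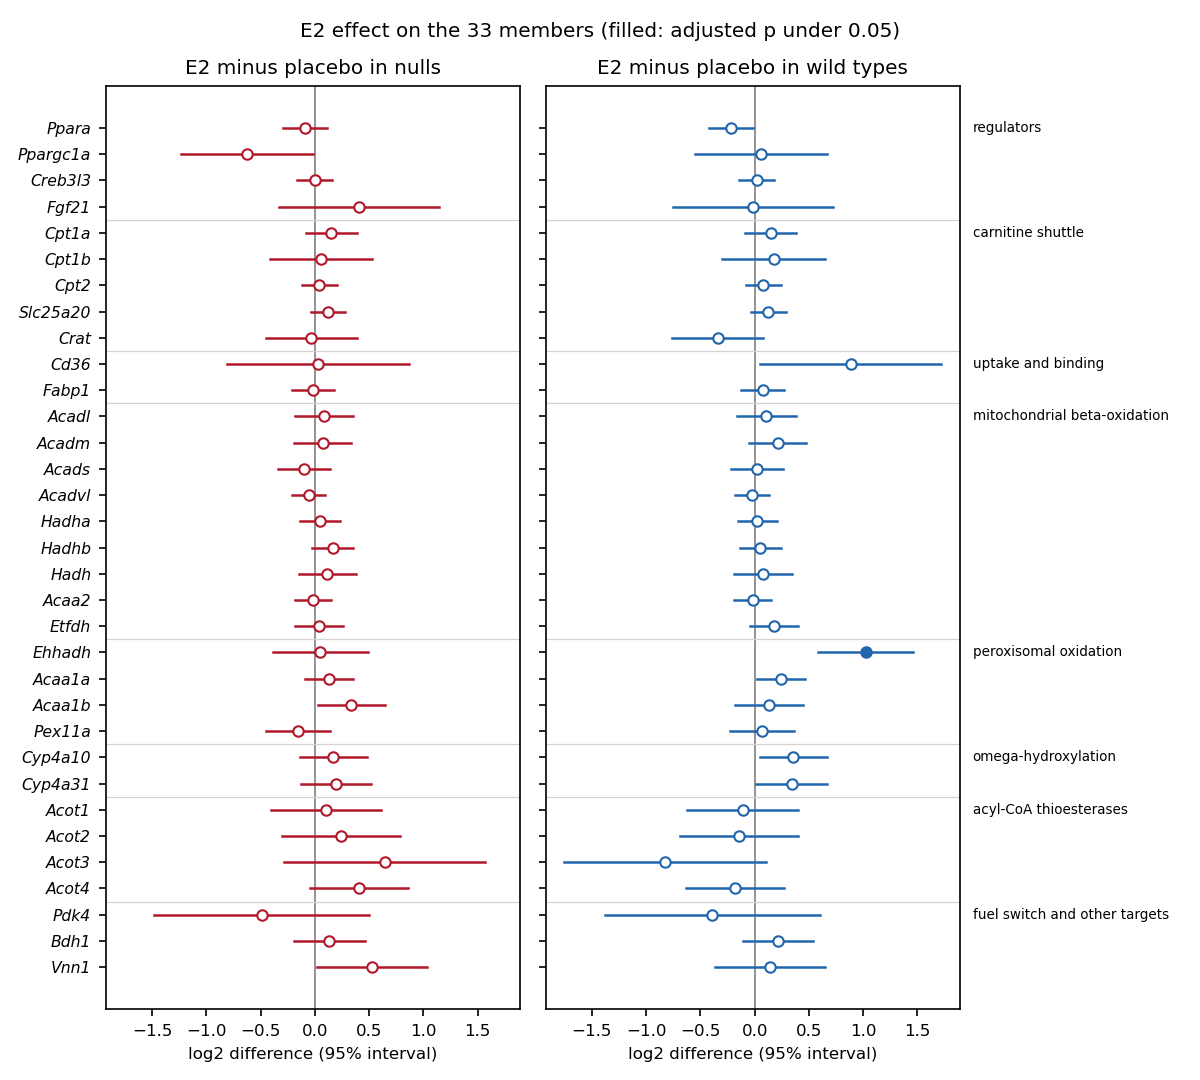
Log2 difference of E2 minus placebo (x axis, point with 95% interval) for the 33 members grouped by role (y axis), in nulls (left) and wild types (right). Filled points have an adjusted p under 0.05. The single filled point is Ehhadh in wild types at 1.02, and most other intervals include 0.

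In nulls, E2 changed 0 of 33 members by limma, and 0.00455% of all genes were called. At an unadjusted p under 0.05 there were 3 members (Acaa1b, Vnn1 and Ppargc1a), against 6.06% of all genes. The median log2 difference was 0.07, against -0.01 over all genes. For the wild-type difference minus the null difference, 0 of 33 members and 0.164% of all genes were called, and at an unadjusted p under 0.05 there were 2 members (Ehhadh and Acot3), against 7.39% of all genes. No member was thus shown to respond to E2 differently in the 2 genotypes after adjustment over all genes. Among the other genes named for their roles, this difference was 0.86 ± 0.56 for Cd36 (limma adjusted p = 0.782), 0.68 ± 0.41 for Ppargc1a (limma adjusted p = 0.753) and -0.42 ± 0.50 for Fgf21 (limma adjusted p = 0.911). It was 0.19 ± 0.21 for Cyp4a10 (limma adjusted p = 0.896), 0.10 ± 0.67 for Pdk4 (limma adjusted p = 0.989) -0.12 ± 0.14 for Ppara (limma adjusted p = 0.906) and 0.00 ± 0.16 for Cpt1a (limma adjusted p = 0.999). The E2 and placebo groups did not overlap for 0 members in nulls, against 0.809% of all genes, and for 1 member (Ehhadh) in wild types, against 1.5% of all genes.

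Under placebo, no member differed between nulls and wild types after adjustment: 0 of 33 were called by limma, against 0.0727% of all genes, and 1 (Cd36) at an unadjusted p under 0.05, against 10.1% of all genes. Cd36 had log2 levels of 2.86, 1.96, 2.20, 2.30 and 2.25 in null placebo livers, against 1.82, 1.37, 0.28, 1.12 and 0.85 in wild type placebo livers. All 5 nulls were above all 5 wild types, a separation seen for 1.85% of all genes. The log2 difference was 1.23 ± 0.40 (2.34-fold, limma adjusted p = 0.295, unadjusted p = 0.00632). On the 3 slides that held both groups it was 1.04, 1.08 and 1.71, from 2 nulls against 1 wild type, 1 against 1 and 2 against 2. Fat cells, macrophages, endothelium and red cell precursors express Cd36 as well. The means of the 4 measured fat cell markers and the erythroid means given above did not overlap between these groups. The fat cell genes Adipoq, Plin1 and Lep did not pass the filter and are not in those means. The erythroid gene Alas2 was called at 0.90 ± 0.12 (limma adjusted p = 0.00249). The Kupffer cell means of 1.86 to 2.91 in null placebo and 1.78 to 2.88 in wild type placebo livers overlapped, as did the endothelial means of 1.28 to 1.88 and 1.44 to 2.08. The part of these cells in the Cd36 value was not tested. Of the other members, Ppargc1a differed by 0.56 ± 0.29 (limma adjusted p = 0.534) and Hadha by -0.16 ± 0.09 (limma adjusted p = 0.556).

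Ppara differed by 0.13 ± 0.10 (limma adjusted p = 0.723), Fgf21 by 0.30 ± 0.35 (limma adjusted p = 0.845), Cpt1a by 0.15 ± 0.11 (limma adjusted p = 0.698), Cyp4a10 by 0.20 ± 0.15 (limma adjusted p = 0.699) and Pdk4 by 0.52 ± 0.47 (limma adjusted p = 0.782). Ehhadh differed by -0.01 ± 0.21 (limma adjusted p = 0.998), with a 95% interval from -0.44 to 0.43.

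Under E2, 1 of 33 members was called between genotypes, against 0.464% of all genes, and it was again Ehhadh, which was lower in nulls by 0.98 ± 0.21 on the log2 scale (1.97-fold, limma adjusted p = 0.0443). At an unadjusted p under 0.05 there were 5 members (Ehhadh, Acot3, Acot4, Ppara and Acot2), against 9.63% of all genes. This comparison shares its wild type E2 livers with the one above and is not independent of it. The Ehhadh difference was -1.04, -0.74 and -1.70 on the 3 slides that held both groups. These came from 1 null against 2 wild types, 2 against 2 and 1 against 1. Without wild type E2 1 it was -1.001 (limma adjusted p = 0.0816), and the call was lost on leaving out any of 12 of the 20 animals. Groups did not overlap for 4 members, Ehhadh, Hadha, Acot3 and Acot4, against 2.5% of all genes. Acot3 was 1.38 ± 0.44 higher in nulls (limma adjusted p = 0.300) and Acot4 0.64 ± 0.22 higher (limma adjusted p = 0.323), neither of which passed. Acot4 levels were 3.78, 3.92, 4.14, 4.36 and 3.96 in null E2 livers against 3.34, 2.89, 3.51, 3.60 and 3.59 in wild type E2 livers. Hadha differed by -0.14, with 2.91, 2.90, 2.89, 2.74 and 2.78 in null E2 livers against 3.12, 2.94, 2.92, 2.97 and 2.96 in wild type E2 livers.

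Values that did not pass under E2 were 0.25 ± 0.10 for Ppara (limma adjusted p = 0.455), 0.63 ± 0.26 for Acot2 (limma adjusted p = 0.481), 0.73 ± 0.35 for Fgf21 (limma adjusted p = 0.525), -0.13 ± 0.29 for Ppargc1a (limma adjusted p = 0.922), 0.16 ± 0.11 for Cpt1a (limma adjusted p = 0.680), 0.01 ± 0.15 for Cyp4a10 (limma adjusted p = 0.988), 0.37 ± 0.40 for Cd36 (limma adjusted p = 0.796) and 0.42 ± 0.47 for Pdk4 (limma adjusted p = 0.806). The other probes of Ppara gave 0.329 and 0.335 under E2, and a second, dimmer probe of Ppargc1a gave 0.26. Averaged over both treatments, 0 of 33 members were called, against 0.696% of all genes, and 6 (Ehhadh, Cd36, Ppara, Hadha, Acot2 and Acot4) had an unadjusted p under 0.05, against 12.9% of all genes. The averaged difference was -0.49 ± 0.15 for Ehhadh (limma adjusted p = 0.127), 0.80 ± 0.28 for Cd36 (limma adjusted p = 0.206) and 0.19 ± 0.07 for Ppara (limma adjusted p = 0.227). For Ppargc1a, Fgf21, Cpt1a, Cyp4a10 and Pdk4 it was 0.21, 0.51, 0.15, 0.11 and 0.47, none past the test.

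**Figure D3:**
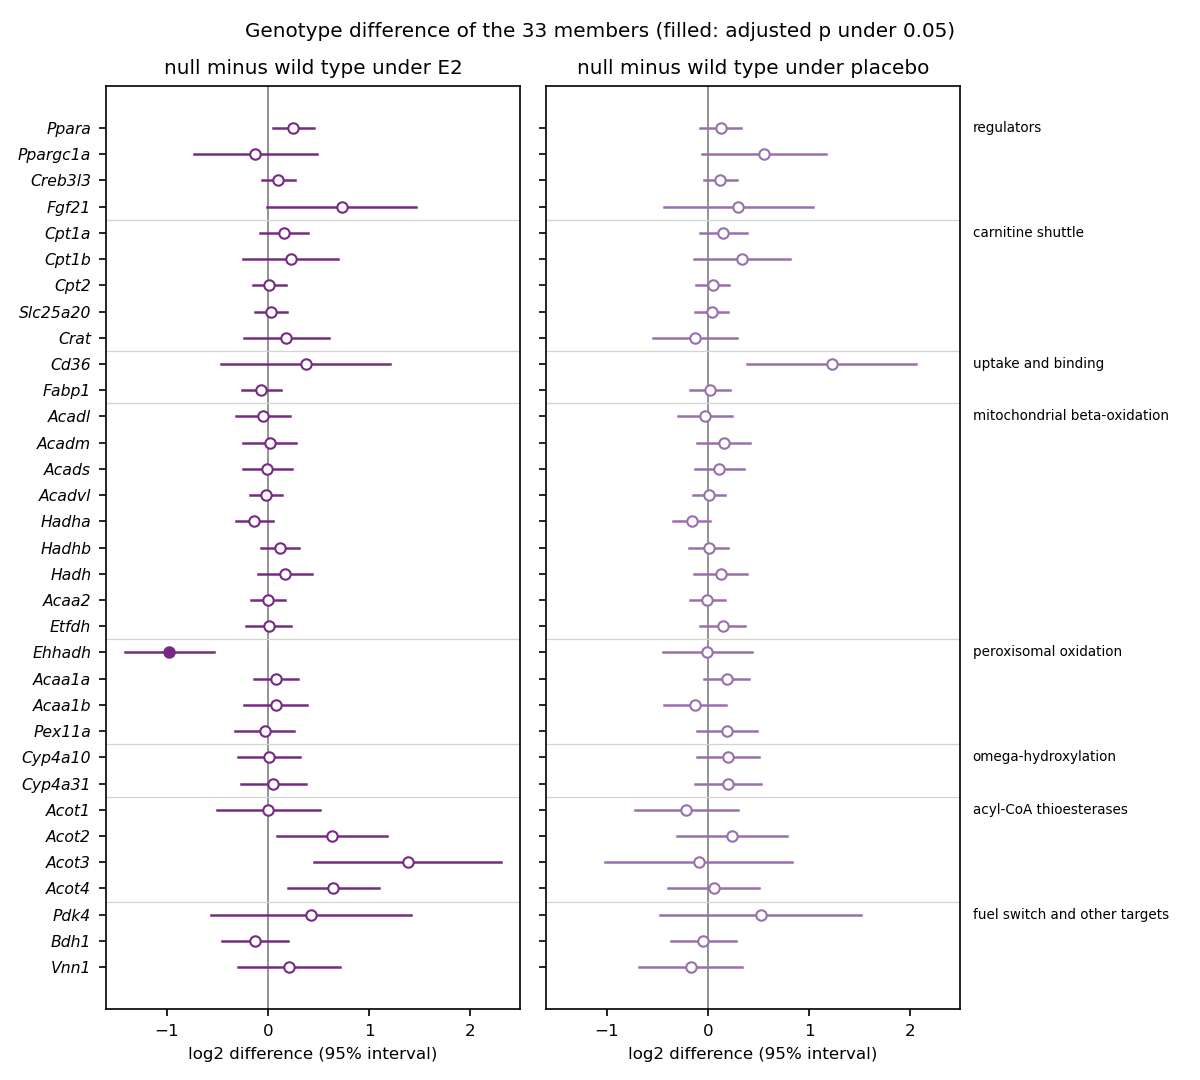
Log2 difference of null minus wild type (x axis, point with 95% interval) for the 33 members by role (y axis), under E2 (left) and under placebo (right). Filled points have an adjusted p under 0.05. Ehhadh under E2, at -0.98, is the single filled point, and Cd36 under placebo, at 1.23, lies farthest to the right of its panel without passing.

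The wider pathway was read in the same comparisons. Of 79 other genes of fatty acid oxidation, transport and PPAR-alpha biology, 77 were measured. In wild types, E2 raised 1 and lowered 0 of these 77, against 0.318% of all genes called. The raised gene was Slc27a1, a fatty acid transport protein, with log2 levels of 2.08, 1.78, 1.66, 1.74 and 1.69 in wild type E2 livers against 1.42, 1.30, 1.22, 0.96 and 1.46 in wild type placebo livers. The groups did not overlap, as for 1.5% of all genes. The difference was 0.52 ± 0.10 (1.43-fold, limma adjusted p = 0.0325), or 0.45 without wild type E2 1 (limma adjusted p = 0.1). In nulls it was -0.14 ± 0.10, and the wild-type difference minus the null difference was 0.66 ± 0.15 (limma adjusted p = 0.106). In nulls, 0 of the 77 were called for E2, against 0.00455% of all genes. The smallest p-values there belonged to Lpin2, a phosphatidate phosphatase, at -0.65 ± 0.20 and Acot6 at 0.61 ± 0.21 (limma adjusted p = 0.818 for each). For the difference of the E2 effects, 0 of the 77 and 0.164% of all genes were called. Lpin2 came after Slc27a1 there, with 0.73 ± 0.29 (limma adjusted p = 0.615). Cyp4a14, a classical PPAR-alpha target, had an E2 difference of 0.16 ± 0.17 in wild types (limma adjusted p = 0.832), which did not pass.

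Against 0.696% of all genes called between genotypes averaged over treatments, 2 of the 77 were higher in nulls and 0 lower. Cyp4a12a, a Cyp4a enzyme known in mice as male-biased, was 1 of them and had log2 levels of -4.19 to 0.47 in null E2 and -1.59 to 1.32 in null placebo livers, against -4.43 to -2.04 in wild type E2 and -3.86 to -1.48 in wild type placebo livers. The averaged difference was 2.17 ± 0.50 (limma adjusted p = 0.0498), with 1 liver of each E2 group not well above background. It was 1.37 with normexp background correction, and the call was lost in 8 of 11 other settings and on leaving out any of 17 of the 20 animals. None of the 77 was called between genotypes under either single treatment, against 0.464% of all genes under E2 and 0.0727% under placebo. Closest under E2 were G0s2, an inhibitor of fat breakdown, at 0.99 ± 0.25 (limma adjusted p = 0.108), and the nuclear receptor gene Esrra at 0.25 ± 0.07 (limma adjusted p = 0.253). Closest under placebo were Sirt5, a mitochondrial deacylase, at 0.55 ± 0.13 (limma adjusted p = 0.164), and Cyp4a12a at 2.84 ± 0.70 (limma adjusted p = 0.164).

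A list of 24 genes that follow feeding or the hour of day, 22 of them measured, was read beside these results because the feeding state was not given. None of the 22 was called by limma in any of the 6 comparisons. At an unadjusted p under 0.05 there were 5 of 22 for E2 in wild types (22.7%, against 8.28% of all genes), 5 for the difference of the E2 effects (22.7%, against 7.39%) and 6 for genotype averaged over treatments (27.3%, against 12.9%). There were 2 for E2 in nulls, 3 for genotype under placebo and 2 for genotype under E2. Elovl6, a lipogenic elongase, came closest, with a difference of -0.76 ± 0.17 for E2 in wild types (limma adjusted p = 0.0806). The part of feeding or hour in the Ehhadh result was not tested.

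Livers of a group differed from each other in the members' levels. The pooled SD within groups was under 0.2 for 14 of 33 members and over 0.4 for 8, with a median of 0.23 against 0.23 over all genes. Pdk4 (0.80), Acot3 (0.75), Cd36 (0.67) and Fgf21 (0.59) were the widest, and Acadvl (0.10) and Slc25a20 (0.10) the narrowest. Relative to each member's mean over the 20 livers, 31 members were high in wild type placebo 1 and 28 in null placebo 4, while 1 was high in wild type placebo 2 and 4 in wild type placebo 4.

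**Figure D4:**
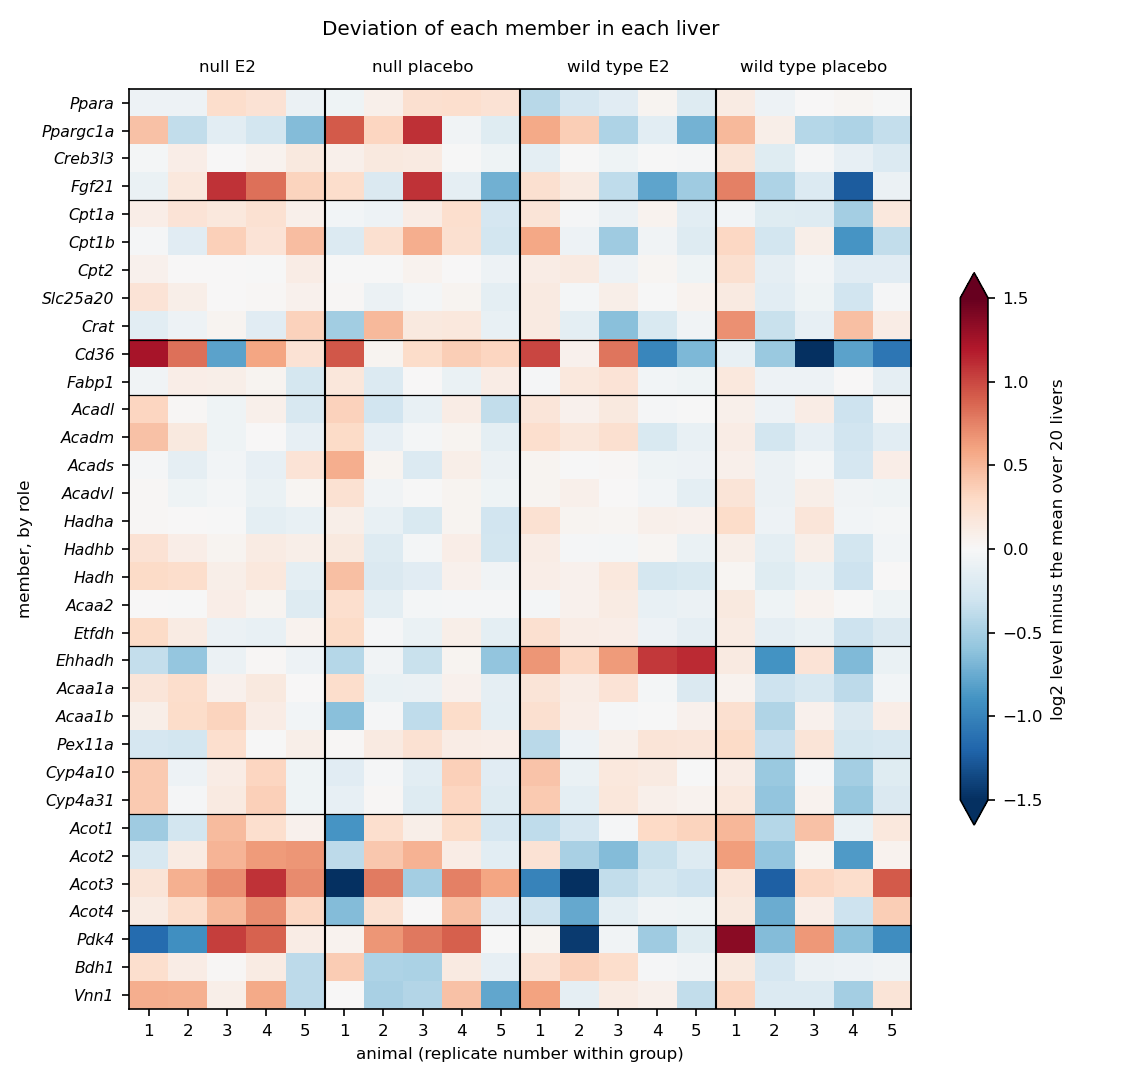
Log2 level of each of the 33 members (rows, by role) in each of the 20 livers (columns, by group), as the deviation from the member's mean over all livers, with colours cut at 1.5 in either direction. Wild type placebo 1 is high for 31 members and wild type placebo 2 for 1, and the row of Ehhadh is high in the 5 wild type E2 livers.

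Co-variation between livers was described with Cyp4a10, a textbook target of PPAR-alpha, after group means had been removed, so that no difference between groups entered it. Of 32 relations with the other members, 31 had an r above 0, and the median r was 0.41. Over 21971 genes other than Cyp4a10, the 32 members among them, the median r was 0.01 and 51.8% had an r above 0. An r over 0.6 was found for 8 of 32 members and for 0.36% of those 21971 genes. The 8 include Cyp4a31, which is not a separate measurement from Cyp4a10. The points share their arrays and their scaling, and Cyp4a10 itself had an r of 0.43 with the share of spots well above background (permutation p = 0.0480) and of 0.03 with the 75th percentile (permutation p = 0.904). The part of array quality in these relations was not tested.

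After adjustment over the 32 relations, 5 had an adjusted p under 0.05. Cyp4a31, whose probe is a near copy, had r = 0.98 (rho 0.98, permutation p = 0.00001, adjusted p = 0.00032, the smallest that the 100000 permutations can give). Vnn1 had r = 0.71 (rho 0.68, permutation p = 0.00141, adjusted p = 0.0226), Slc25a20 r = 0.70 (rho 0.71, permutation p = 0.00302, adjusted p = 0.0322), Acaa1b r = 0.66 (rho 0.60, permutation p = 0.00585, adjusted p = 0.0468) and Hadhb r = 0.64 (rho 0.60, permutation p = 0.00743, adjusted p = 0.0476). For these 5, the adjusted p of rho was 0.00032, 0.0334, 0.0334, 0.0606 and 0.0606. Ehhadh had r = 0.63 (rho 0.69, permutation p = 0.0136, adjusted p = 0.0657), and thus did not pass by r, while its rho did (adjusted p = 0.0465), as did that of Acot4 (r = 0.60, rho 0.68, adjusted p of rho 0.0392). Without the 2 livers farthest from the median of Cyp4a10 (null placebo 4 and wild type placebo 1), r was 0.98 for Cyp4a31, 0.59 for Vnn1, 0.59 for Slc25a20, 0.48 for Acaa1b, 0.53 for Hadhb and 0.55 for Ehhadh. Ppara and Fabp1 had r of 0.18 and -0.07.

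**Figure D5:**
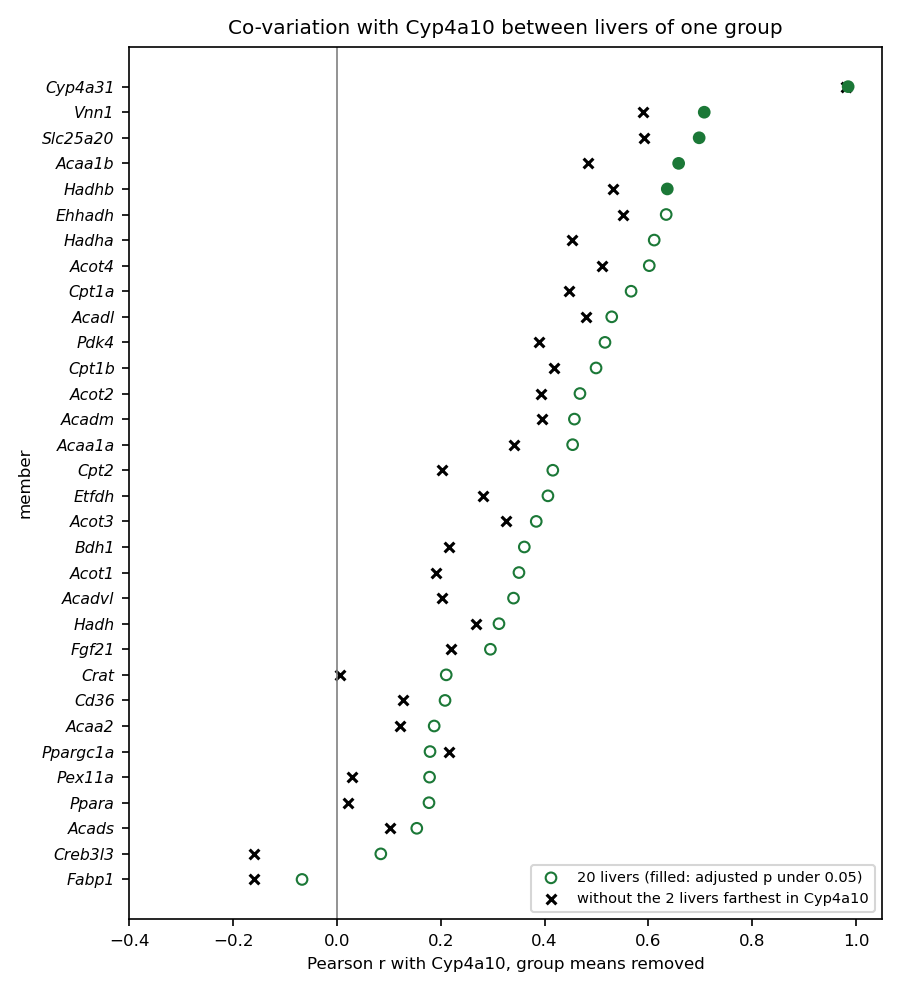
Pearson r (x axis) of each of 32 members (y axis) with Cyp4a10 over 20 livers after group means were removed, with filled circles for an adjusted p under 0.05. Crosses give r without the 2 livers farthest in Cyp4a10. Of the 32 circles 31 lie above 0, and Cyp4a31, at 0.98, stands apart from Vnn1 at 0.71.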

How the data were processed

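Gene expression was measured in the livers of 20 mice in 4 groups of 5, taken from the genotype and treatment in the labels. Each sample was a separate animal, and cage mates were not named. Per the file headers, Agilent Feature Extraction 10.10.1.1 made the processed intensity of each spot, which it had background-subtracted and detrended. Probes are placed on mm9. A second file from the authors, in log2 values, was used as an alternative. It holds the probes used for all 33 members and for 21917 of the genes tested. The submitters' processing notes name limma.

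From these files, the level of a probe was computed as log2 of the processed intensity minus the 75th percentile of its array over 59305 non-control spots. Non-uniform spots (0 to 16 per array) were left out and no spot was saturated. Of 55681 probes, the 30961 marked as above background (by the scanner software's own test) in 4 or more animals of any group were kept, and the brightest kept probe stood for its gene. One limma model (version 3.58.1; R 4.3.3; package data.table, version 1.17.8) gave the 4 group means, with 16 residual and 2.44 prior degrees of freedom. Tests were 2-sided, and p-values were adjusted by Benjamini-Hochberg over the 21998 genes within each of 6 contrasts, with calls under 0.05. The fit was tested on simulated data. Co-variation was tested by permuting livers within groups (100000 permutations). The number of arrays limits the precision.

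The members, the other lists and the rule for named genes were chosen with earlier results of these data known. The rule gives statistics for members past the threshold, for the 3 members of smallest p where none passed, and for Ppara, Ppargc1a, Cpt1a, Cyp4a10, Fgf21, Cd36 and Pdk4. Of the other pathway genes it names those past the threshold, or else the 2 of smallest p. Other values shown were chosen after they were seen. Values of some other pathway genes are not reported here. Names came from RefSeq by accession (27235 probes), symbol (3581) or synonym (565), and otherwise from the array (24300). Sequence windows are from RefSeq on GRCm38.p6. Replicate numbers did not pair the animals: deviations of same-numbered animals correlated from -0.163 to 0.245. Alternatives changed the scaling, background correction, source of values, filter, probe choice, slide, replicate and animal-number terms, the groups fitted and the animals included.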

Additional observations from a re-analysis of the deposited data

Results flagged for a closer look

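Among the 132 sets of 5 levels of a member in a group, 2 held an animal far from the others, where chance marks about 1 set in 20. Hadha was at 3.117 in wild type E2 1, above the other 4 livers at 2.923 to 2.966, and this array also had the highest share of spots well above background (70.0%). Cyp4a10 was at 9.006 in null placebo 4, above the other 4 livers at 8.474 to 8.627, and in that liver 28 of 33 members were above their own mean.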

How the results depend on the processing

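Ehhadh kept its direction under all 13 settings and on leaving out each animal, with a log2 difference for E2 in wild types of 0.781 to 1.205 and of 0.865 to 1.139. Members called for E2 in wild types fell to 0, against 1, with array median scaling (adjusted p of Ehhadh 0.416), quantile scaling (0.0521), no filter on dim probes (0.0825), slide as a random block (0.0502), only animals numbered 750 or above (0.168) and only the groups of the contrast (0.26). Null against wild type under E2 likewise gave 0, against 1, with median scaling (0.471), no filter (0.103), slide as a random block (0.0557), the replicate block (0.0578), animals numbered 750 or above (0.439) and only the groups of the contrast (0.0577). No filter tests more genes, and the settings on animals or groups use fewer arrays, while the cause in the others was not tested. The replicate block kept 1 member called for E2 in wild types (adjusted p 0.0477). Slide as a fixed block kept both calls. Leaving out single animals gave 0 to 1 members in both comparisons. The E2 call was lost without null E2 1, 3 or 5, null placebo 2 or 3, any wild type E2 animal but 2, or wild type placebo 2, 4 or 5 (adjusted p up to 0.135). The genotype call was lost without any null E2 animal, null placebo 2 or 3, any wild type E2 animal but 2, or wild type placebo 5 (up to 0.152). Members called stayed at 0 in the other 4 comparisons under all settings run.

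Array median scaling moved the median of all genes to -0.24 for E2 in wild types and -0.12 in nulls, and the members' median to -0.169 and -0.038, with 4 and 14 of 33 above 0. Relative to all genes, Ehhadh then stood at 1.02 and the members' median at 0.07 in wild types. Counts of all genes called ran from 29 to 90, against 70, for E2 in wild types, 0 to 2, against 1, in nulls, 10 to 42, against 36, for the difference, 2 to 22, against 16, for genotype under placebo, 35 to 123, against 102, under E2 and 47 to 186, against 153, averaged. On leaving out single animals the averaged count ran from 77 to 273, the placebo count from 6 to 46 and the nulls' count from 0 to 2. Slc27a1 lost its call in 6 of 13 settings and without 6 of 20 animals, with a difference of 0.275 to 0.533, and Cyp4a12a in 8 of 11 settings and without 17 animals.

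Members named for their role and not called changed sign in some settings. For E2 in wild types, Ppargc1a was -0.185 with median scaling, -0.164 with a slide block, -0.309 in animals numbered 750 or above and -0.238 with a block for lower numbers, Cpt1a was -0.092 with median scaling and Fgf21 0.003 with quantile scaling. For E2 in nulls, Cd36 was -0.084 with median scaling, -0.05 with a slide block and -0.347 in animals numbered 750 or above, where Pdk4 was 0.227. For the difference, Pdk4 was -0.032 with median scaling and -0.443 in animals numbered 750 or above, Ppargc1a -0.062 in the same animals and Cpt1a 0.025 with a slide block. In those animals Fgf21 was -0.18 for genotype under placebo, and for genotype under E2 Ppargc1a was 0.08 there, 0.067 with the mean of its probes and 0.009 with a slide block, and Cyp4a10 was 0 in the deposited values and -0.036 with a slide block. Averaged, Ppargc1a was -0.006 with a block for numbers below 750. On leaving out single animals, signs turned within ranges of -0.104 to 0.215 for Ppargc1a and -0.263 to 0.236 for Fgf21 (E2 in wild types), -0.179 to 0.332 for Cd36 (E2 in nulls), -0.093 to 0.075 for Cpt1a and -0.187 to 0.448 for Pdk4 (difference), and -0.286 to 0.036 for Ppargc1a and -0.052 to 0.088 for Cyp4a10 (genotype under E2).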
